A study of Rattus norvegicus with 12 samples.

Results

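Glycolysis genes were described across the 4 groups of RNA-Seq experiment 1: the glucose transporter gene Slc2a1, the hexokinase genes Hk1 and Hk2, the phosphofructokinase genes Pfkl, Pfkm and Pfkp, the regulatory kinase gene Pfkfb3, the pyruvate kinase gene Pkm and the lactate dehydrogenase genes Ldha and Ldhb. They were chosen by name, for the choice between isozymes in proliferative cells, and the rule itself uses no measured value, although earlier results of these data were known when they were chosen. They are 10 of the 33294 genes in the count table, and each of the 10 passed the filter on low counts in every comparison.

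The study asked how RNA-binding proteins shape the smooth muscle transcriptome, using PAC1, a rat pulmonary vascular smooth muscle cell line that can be kept in a more differentiated state (PAC1-D) or a more proliferative one (PAC1-P) by how often and how far it is split. D1 was PAC1-D treated with control siRNA, P was PAC1-P likewise treated with control siRNA, RBPMS KD1 was PAC1-D treated with siRNA against RBPMS, and MBNL KD was PAC1-D treated with siRNAs against MBNL1 and MBNL2. All 4 groups shared the line, serum-containing medium and 2 rounds of reverse transfection with 90 pmol siRNA. The labels put the second round at 24 h and the harvest 48 h after it, whereas the study's methods describe a longer schedule, and which of them applied to these libraries could not be settled. Each group had 3 poly(A) libraries. The knockdowns were partial, since Rbpms stood at 24.7% to 25.5% of the D1 mean in RBPMS KD1, Mbnl1 at 23.6% to 24.1% and Mbnl2 at 29.1% to 30.1% in MBNL KD, while P libraries held 6.2% to 6.4% of the D1 mean of Rbpms with no siRNA against it.

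Glycolysis splits glucose into pyruvate in the cytosol, and lactate dehydrogenase can then turn pyruvate into lactate, regenerating the NAD+ that the pathway consumes. The steps of hexokinase, phosphofructokinase and pyruvate kinase are largely irreversible and regulated, and each of them is served by isozymes from separate genes or, for Pkm, by alternative splicing of one gene. Vascular smooth muscle is known for making much lactate even with oxygen at hand, and proliferating cells of many kinds raise glycolysis and favour particular isozymes.

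The libraries had between 80842635 and 90771289 counts, so that 3 counts correspond to between 0.0331 and 0.0371 CPM, and the lowest member was Ldhb, with 130 to 211 counts in every library outside P. Together the members took 0.185% to 0.192% of all counts in D1, 0.279% to 0.299% in P, 0.139% to 0.143% in RBPMS KD1 and 0.152% to 0.155% in MBNL KD. The 8 smooth muscle markers (Myh11, Acta2 and others) summed to 870347 to 914855 scaled counts per D1 library, against 433760.4 to 449217 for RBPMS KD1, 694962 to 705331 for MBNL KD and 18716 to 19888 for P, which thus lacked most of the contractile signature of its labelled cell type. The summed level of 5 cycling-cell markers was highest in P (77277 to 80003) and lowest in MBNL KD (40508 to 40946), with D1 at 62889 to 64715 and RBPMS KD1 at 51952 to 53871. Of these 5, 3 rose in P, beside 40.4% of all genes tested, while Cdk1 and Top2a did not reach an edgeR adjusted p under 0.05. In RBPMS KD1 4 fell, beside 29.5% of all genes, and in MBNL KD 5 fell, beside 33.7%. By EdU uptake, the study found more proliferation after RBPMS knockdown. The markers Cdh5, Kdr and Tie1 of endothelium, Ptprc and Itgam of leukocytes and Epcam, Cdh1 and Cldn4 of epithelium had at most 3 counts in every library of D1 and of both knockdowns. In P only Itgam and Cldn4 of these 8 stayed that low. The 5 endothelial markers summed to 25.8 to 30.6 scaled counts in D1, 407 to 499 in P, 66.8 to 70.6 in RBPMS KD1 and 30.7 to 54.4 in MBNL KD, with Tek (log2 fold change 3.71 ± 0.18, edgeR adjusted p = 6.4e-19 in P) and Cdh5, at 122 ± 7.9 in P and 0 in D1, rising in P. The 5 epithelial markers, of which only Krt8 passed the filter on low counts, were at 3154 to 3309 in D1, 7128 to 7397 in P, 3448 to 3677 in RBPMS KD1 and 4763 to 4848 in MBNL KD. The 5 leukocyte markers, mostly Cd14, were at 5172 to 5542 in D1, 4329 to 4523 in P, 7493 to 7709 in RBPMS KD1 and 4663 to 4937 in MBNL KD. The 5 fibroblast markers, whose sum was almost all Col1a1, were at 1277396 to 1340954 in D1, 1591852 to 1774407 in P, 1778043 to 1891498 in RBPMS KD1 and 1155889 to 1189015 in MBNL KD. In P 3 rose and 1, Pdgfra, fell, beside 40.4% and 37.6% of all genes tested. In RBPMS KD1 3 rose and 1, Lum, fell, beside 29.5% each, and in MBNL KD 1 rose and 3 fell, beside 33.8% and 33.7%. The 5 skeletal muscle markers were at 784.5 to 1076 in D1, 116 to 140.4 in P, 248 to 269 in RBPMS KD1 and 1129.8 to 1459 in MBNL KD. Of 4 of them tested in MBNL KD, Myod1 (59.1 ± 13.9, against 0 in D1) and Myh3 rose and Ckm and Acta1 fell, beside the same 33.8% and 33.7% of all genes. The part that these shifts in markers have in the values of the glycolysis genes was not tested, and in such bulk libraries fewer cells of a kind and less RNA per cell cannot be told apart. The values that follow are counts scaled to a common library size by edgeR's TMM factors, given in the order of replicates 1, 2 and 3, with ± SE after a fold change and ± SD over 3 libraries after a mean. Lengths of the transcripts were not at hand, so levels are compared between groups and never between genes.

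In P against D1, all 10 members passed an adjusted p under 0.05 (quasi-likelihood F test of edgeR, adjusted by Benjamini-Hochberg across the genes tested), beside 77.9% of the 16814 genes tested. The libraries of P and D1 did not overlap for any of the 10, nor for 79.1% of all genes. Hk1, Hk2, Pfkl, Pfkp, Pkm, Ldha and Ldhb rose, 7 of 10 beside 40.4% of all genes, and Slc2a1, Pfkm and Pfkfb3 fell, 3 of 10 beside 37.6%. Pfkp and Ldhb also passed a log2 fold change of 1, which is 2 of 10 members beside 27.6% of all genes tested. The share of higher genes was 59.4% among those 4641 calls, and 45.2% among the 4879 genes called after quantile normalization. The median log2 fold change was 0.47 over the members and 0.02 over all genes tested.

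RBPMS KD1 gave the opposite balance. Of 10 members, 6 fell (Slc2a1, Hk1, Hk2, Pfkl, Pkm and Ldha), 2 rose (Pfkp and Pfkfb3) and Pfkm and Ldhb did not pass the test, so that 8 of 10 passed an adjusted p under 0.05, beside 59.1% of the 15904 genes tested. Falls and rises each made up 29.5% of all genes. The same 8 members had libraries that did not overlap with D1, as 63.4% of all genes had. Pfkl alone passed the fold threshold, beside 4.68% of all genes (745, of which 65.4% were higher, against 53.8% of the 704 called after quantile normalization). The median log2 fold change was -0.21 over the members and 0.00 over all genes tested.

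In MBNL KD, 7 members fell (Slc2a1, Hk1, Pfkl, Pfkm, Pfkfb3, Pkm and Ldha), 2 rose (Hk2 and Pfkp) and Ldhb did not pass, so that 9 of 10 passed an adjusted p under 0.05, beside 67.5% of the 16053 genes tested. Falls made up 33.7% and rises 33.8% of all genes. The libraries did not overlap for the same 9 members and for 70.3% of all genes. Pfkl again was the one member past the fold threshold, beside 10.2% of all genes tested (1643, of which 59.6% were higher, against 49.5% of the 784 called by limma on the authors' normalised values). The median log2 fold change was -0.32 over the members and 0.01 over all genes tested. The 3 comparisons share the D1 libraries, so their values are set side by side and not counted as separate evidence.

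The knockdowns were also compared with each other, without D1. Hk2, Pfkl, Pfkp and Ldha were higher in MBNL KD than in RBPMS KD1 and Slc2a1, Hk1, Pfkm and Pfkfb3 were lower, so that 8 of 10 passed an adjusted p under 0.05, beside 69.5% of the 16111 genes tested (35.1% higher and 34.5% lower). For 9 members, Pkm being the one added, the libraries did not overlap, as for 71.8% of all genes. By edgeR 0 members passed the fold threshold, beside 11.9% of all genes tested, with 8 members at an unadjusted p under 0.05, and DESeq2 also put 0 past it.

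**Figure D1:**
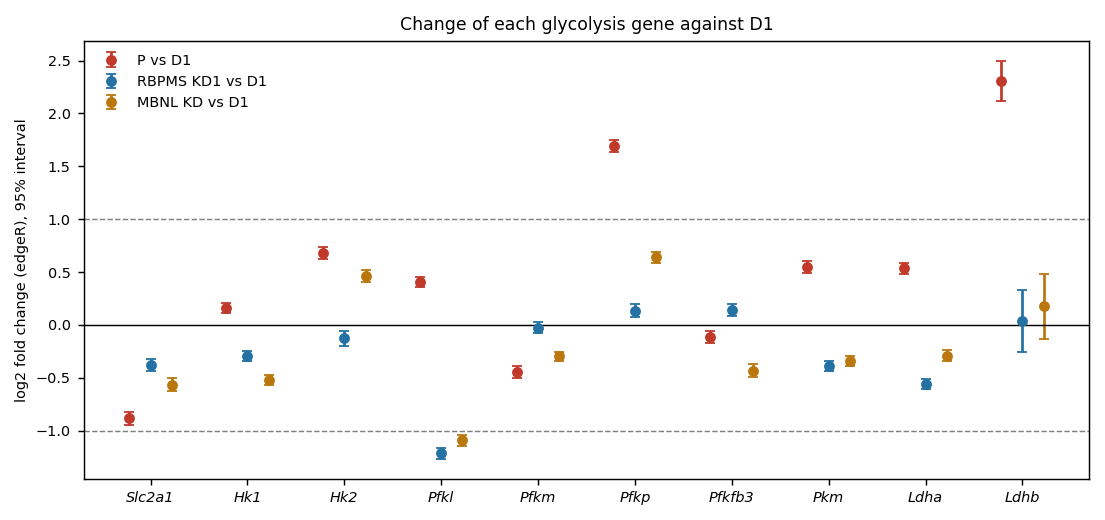
Log2 fold change of each of the 10 genes against D1 (vertical axis, points with bars of the 95% interval), coloured by comparison, with dashed lines at the fold threshold of 1. Pfkp and Ldhb in P lie above the upper line and Pfkl in both knockdowns lies below the lower one.

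Hk1, Pfkl, Pkm and Ldha shared one direction in each comparison with D1, higher in P and lower in both knockdowns. The 250 bases before their annotated gene starts are shown because these 4 genes shared those directions. Between the knockdowns they did not, with Hk1 lower and Pfkl and Ldha higher in MBNL KD. They were read from RefSeq promoters on GRCr8, which is not the build of the counts, and run 5′ to 3′ on the gene's own strand. Capitals mark ACGTG, one form of the core letters that hypoxia-inducible factors bind, or its reverse complement CACGT. The other form, GCGTG, was neither searched nor marked. The E-box CACGTG, which MYC and carbohydrate-response factors bind, contains both and is searched as a pair of overlapping matches.
Hk1 (chr20:30874815-30875064, minus strand): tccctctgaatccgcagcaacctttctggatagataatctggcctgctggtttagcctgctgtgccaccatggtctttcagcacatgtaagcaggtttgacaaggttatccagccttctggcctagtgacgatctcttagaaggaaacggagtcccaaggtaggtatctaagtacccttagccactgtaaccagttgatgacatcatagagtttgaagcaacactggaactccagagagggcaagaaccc
Pfkl (chr20:10663715-10663964, plus strand): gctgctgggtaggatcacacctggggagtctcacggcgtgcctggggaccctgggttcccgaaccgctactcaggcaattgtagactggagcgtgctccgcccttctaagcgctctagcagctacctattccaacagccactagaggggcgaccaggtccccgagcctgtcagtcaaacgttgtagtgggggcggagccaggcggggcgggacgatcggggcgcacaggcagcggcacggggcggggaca
Pkm (chr8:68953385-68953634, plus strand): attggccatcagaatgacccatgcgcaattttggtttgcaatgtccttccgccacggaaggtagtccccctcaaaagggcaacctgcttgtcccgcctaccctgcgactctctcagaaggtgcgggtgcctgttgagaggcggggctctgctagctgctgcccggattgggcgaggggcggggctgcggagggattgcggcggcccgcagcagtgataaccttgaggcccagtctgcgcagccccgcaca
Ldha (chr1:106507842-106508091, plus strand): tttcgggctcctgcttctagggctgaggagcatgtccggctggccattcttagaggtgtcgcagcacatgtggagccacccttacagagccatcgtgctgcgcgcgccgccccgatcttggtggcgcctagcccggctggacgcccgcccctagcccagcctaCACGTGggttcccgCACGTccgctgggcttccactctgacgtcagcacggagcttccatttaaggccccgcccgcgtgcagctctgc
Ldha had 3 matches to ACGTG in either direction, starting 87, 86 and 73 bases before the gene start, of which the first pair is 1 E-box. No match lies in the printed windows of Hk1, Pfkl and Pkm, which says only that these letters are not there. Besides Ldha, a match started 51 bases before the start in Slc2a1 and 132 in Pfkm, and Pfkfb3 had an E-box at 42. Among all members 4 of 10 held ACGTG in either direction, compared with 16.6% of 33469 RefSeq promoters of the same length. Among the other glycolysis enzymes 6 of 18 promoters held it. The E-box was found in 2 members, Ldha and Pfkfb3, in 1 of the 18 other enzymes and in 5.59% of all promoters.

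Slc2a1 encodes GLUT1, the transporter that brings glucose into most cells. It had 7517, 7160.3 and 7399.8 scaled counts in the D1 libraries and 3833, 4123 and 4040.4 in P. It had 5598, 5637 and 5734 in RBPMS KD1 and 4950.3, 5234 and 4715 in MBNL KD. D1 was highest and P lowest, with both knockdowns between them and no overlap between any groups. Slc2a1 thus fell in P (log2 fold change -0.89 ± 0.03, edgeR adjusted p = 2.5e-22), a fall of 1.85-fold, while most members rose there. It also fell in RBPMS KD1 (log2 fold change -0.38 ± 0.03, edgeR adjusted p = 9.3e-12) and in MBNL KD (log2 fold change -0.56 ± 0.03, edgeR adjusted p = 1.7e-15), and the level in MBNL KD was below that in RBPMS KD1 (log2 fold change -0.19 ± 0.03, edgeR adjusted p = 1.1e-05).

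Hexokinases phosphorylate glucose and so keep it in the cell. Hk1, the form found in most tissues, had 25961, 25726 and 25913 scaled counts in D1 and 28596, 29632 and 28946 in P. It had 21543, 20602 and 20979.8 in RBPMS KD1 and 18588, 17819.8 and 17583 in MBNL KD. The order was P, D1, RBPMS KD1 and MBNL KD from high to low, with no overlap. The rise in P was small (log2 fold change 0.16 ± 0.02, edgeR adjusted p = 2.6e-07) and came to 0.33 after quantile normalization. Hk1 fell in RBPMS KD1 (log2 fold change -0.30 ± 0.03, edgeR adjusted p = 3.5e-11) and further in MBNL KD (log2 fold change -0.52 ± 0.03, edgeR adjusted p = 3.7e-17). In RefSeq 2 lncRNA genes on the opposite strand overlap Hk1, of which LOC120098927 is in the count table, with group means of 182 to 229 scaled counts. Whether counting used strand is not given in the sources used here.

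Hk2, the insulin-responsive form typical of muscle and of many tumours, had 5654, 5345 and 5499.7 scaled counts in D1 and 8766, 8829 and 8994 in P. It had 5304, 4806 and 4992 in RBPMS KD1 and 7499.5, 7475 and 7754 in MBNL KD. P was highest and MBNL KD next, and both lay above all libraries of D1 and RBPMS KD1. Hk2 rose in P (log2 fold change 0.68 ± 0.03, edgeR adjusted p = 1.5e-20) and in MBNL KD (log2 fold change 0.46 ± 0.03, edgeR adjusted p = 9.4e-15), where Hk1 fell. In RBPMS KD1 it fell slightly (log2 fold change -0.13 ± 0.04, edgeR adjusted p = 0.0033), a call that was lost by limma on the authors' normalised values (adjusted p = 0.080). The difference between the knockdowns was 1.50-fold (log2 fold change 0.58 ± 0.03, edgeR adjusted p = 6.5e-16).

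**Figure D2:**
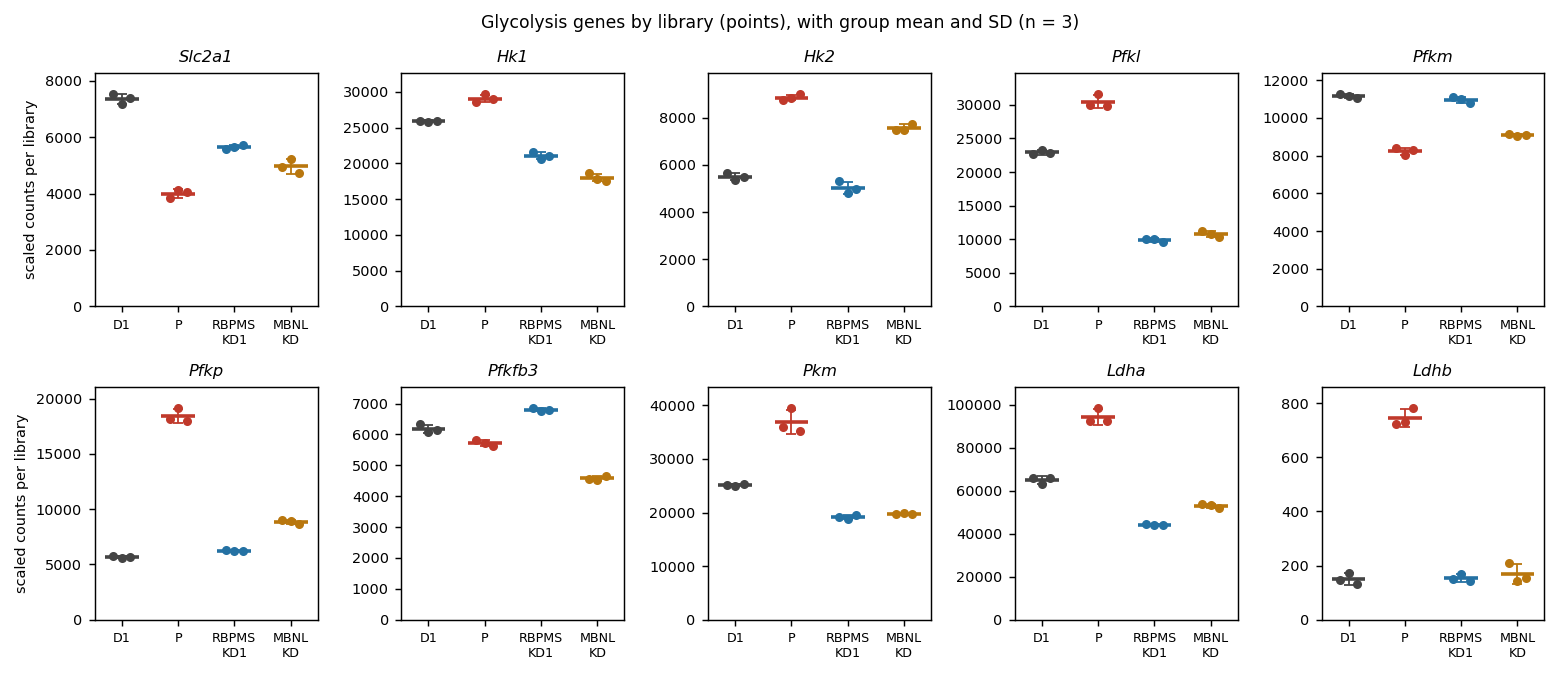
Scaled counts of the 10 genes (vertical axes from 0) in each library (points) by group, with the group mean (horizontal line) and SD (bars) over 3 libraries. Pfkl in RBPMS KD1 and MBNL KD lies between 9600 and 11159 scaled counts, under all D1 libraries, and Pfkp in P lies between 17958 and 19166, above all others.

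Phosphofructokinase commits sugar to glycolysis, and its liver (Pfkl), muscle (Pfkm) and platelet (Pfkp) subunits assemble into tetramers whose make-up differs between tissues. Pfkl had 22645, 23297 and 22832 scaled counts in D1 and 30002, 31545 and 29807 in P. It had 9992, 10022 and 9599.8 in RBPMS KD1 and 11159, 10727 and 10347 in MBNL KD. Every knockdown library was below every D1 library, with group means of 43.1% and 46.9% of the D1 mean, while P stood at 132.8%. Pfkl rose in P (log2 fold change 0.41 ± 0.03, edgeR adjusted p = 8.6e-16). It fell by 2.32-fold in RBPMS KD1 (log2 fold change -1.21 ± 0.03, edgeR adjusted p = 4.3e-24) and by 2.13-fold in MBNL KD (log2 fold change -1.09 ± 0.03, edgeR adjusted p = 1.3e-24). By limma on the authors' normalised values the log2 fold change in MBNL KD was -0.99 and so fell just short of the threshold. Between the knockdowns Pfkl was slightly higher in MBNL KD (log2 fold change 0.12 ± 0.03, edgeR adjusted p = 4.3e-04).

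Pfkm had 11249, 11189 and 11073 scaled counts in D1 and 8399.8, 8032 and 8278 in P. It had 11101, 10995 and 10783 in RBPMS KD1 and 9135, 9043 and 9078 in MBNL KD. D1 and RBPMS KD1 overlapped, and MBNL KD and P lay below both. Pfkm fell in P (log2 fold change -0.45 ± 0.03, edgeR adjusted p = 2.1e-16), where the other phosphofructokinase genes rose, and in MBNL KD (log2 fold change -0.30 ± 0.02, edgeR adjusted p = 2.0e-12). For RBPMS KD1 the difference did not pass the test (log2 fold change -0.03 ± 0.03, edgeR adjusted p = 0.42, 95% interval -0.08 to 0.03), and its sign turned to 0.04 after quantile normalization and 0.05 by limma on the normalised values. Pfkm overlaps Senp1 on the opposite strand, which had group means of 4579 to 6114 scaled counts, and reads of these genes in the shared stretch cannot be told apart if counting ignored strand.

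Pfkp had 5785, 5610.1 and 5667 scaled counts in D1 and 18166, 19166 and 17958 in P. It had 6292, 6255 and 6169 in RBPMS KD1 and 9019, 8908 and 8651 in MBNL KD. It was the only one of the 10 members that rose in P and in both knockdowns, and its 4 groups did not overlap. The rise was 3.23-fold in P (log2 fold change 1.69 ± 0.03, edgeR adjusted p = 5.2e-32), 1.10-fold in RBPMS KD1 (log2 fold change 0.14 ± 0.03, edgeR adjusted p = 3.1e-04) and 1.56-fold in MBNL KD (log2 fold change 0.64 ± 0.03, edgeR adjusted p = 8.4e-19). It was higher in MBNL KD than in RBPMS KD1 (log2 fold change 0.50 ± 0.03, edgeR adjusted p = 3.6e-16).

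Pfkfb3 encodes a kinase that makes fructose 2,6-bisphosphate, a strong activator of phosphofructokinase. It had 6334, 6064 and 6133 scaled counts in D1 and 5829.7, 5706 and 5620.0 in P. It had 6864, 6749.6 and 6805 in RBPMS KD1 and 4562, 4513 and 4644 in MBNL KD. RBPMS KD1 was highest and MBNL KD lowest, on opposite sides of D1, and no groups overlapped. The rise in RBPMS KD1 was 1.10-fold (log2 fold change 0.14 ± 0.03, edgeR adjusted p = 1.6e-04) and the fall in MBNL KD 1.35-fold (log2 fold change -0.43 ± 0.03, edgeR adjusted p = 1.2e-13). The direct difference between the knockdowns was the largest of the falls among the members in that comparison (log2 fold change -0.58 ± 0.03, edgeR adjusted p = 7.4e-17). In P the fall was slight (log2 fold change -0.12 ± 0.03, edgeR adjusted p = 8.7e-04) and came to -0.07 after quantile normalization. Of the 4 other genes of fructose 2,6-bisphosphate turnover, 3 rose and 1 fell in P (beside 40.4% and 37.6% of all genes), 1 rose and 3 fell in RBPMS KD1 (beside 29.5% each), and 1 rose and 1 fell in MBNL KD (beside 33.8% and 33.7%), none past the fold threshold.

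Pkm encodes pyruvate kinase, which makes pyruvate and ATP in the last step of glycolysis. Its mutually exclusive exons give PKM1, common in resting muscle, and PKM2, common in proliferating cells. The counts are per gene and do not separate these forms. Pkm had 25192, 24885 and 25299.9 scaled counts in D1 and 35888, 39570.0 and 35313 in P. It had 19171, 18832 and 19571 in RBPMS KD1 and 19653, 19895 and 19750.0 in MBNL KD. P lay above D1 and the knockdowns below it, and P replicate 2 was the highest library, with a coefficient of variation of 6.26% over P. Pkm rose by 1.47-fold in P (log2 fold change 0.55 ± 0.03, edgeR adjusted p = 1.5e-17) and fell by 1.31-fold in RBPMS KD1 (log2 fold change -0.39 ± 0.03, edgeR adjusted p = 9.6e-14) and by 1.27-fold in MBNL KD (log2 fold change -0.34 ± 0.02, edgeR adjusted p = 1.8e-13). With each of the 6 libraries left out in turn, the log2 fold change in P ranged from 0.50 to 0.58. The libraries of the knockdowns did not overlap, but their difference did not pass the test (log2 fold change 0.04 ± 0.03, edgeR adjusted p = 0.2, 95% interval -0.01 to 0.09). It passed after quantile normalization and by limma on the normalised values, at a log2 fold change of 0.07 in both, and in 0 of 6 fits that left out 1 library, where it ranged from 0.008 to 0.037.

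Proteins that choose between the Pkm exons were listed as a group. Of 7 such genes 6 had enough counts, among them, as examples of the list, Ptbp1, Hnrnpa1, Hnrnpa2b1 and Srsf3, which favour the PKM2 exon. All 6 were lower in P and all 6 in RBPMS KD1, beside 37.6% and 29.5% of all genes tested that were lower in those comparisons, and 4 of 6 were lower in MBNL KD, beside 33.7%. Hnrnpa2b1 in P turned from -0.08 to 0.15 after quantile normalization, where 4 of 6 were lower and 1 higher. None of the 6 passed the fold threshold.

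Lactate dehydrogenase interconverts pyruvate and lactate, with A subunits typical of lactate-making tissue and B subunits of the heart and other oxidative tissue. Ldha had 65936, 62988 and 66063 scaled counts in D1 and 92439.7, 98702 and 92327 in P. It had 44391, 43900.2 and 43958 in RBPMS KD1 and 53829, 53339.6 and 51978 in MBNL KD. The order was P, D1, MBNL KD and RBPMS KD1, with no overlap. Ldha rose by 1.45-fold in P (log2 fold change 0.54 ± 0.03, edgeR adjusted p = 1.1e-18), a log2 fold change that came to 0.88 after quantile normalization. It fell by 1.47-fold in RBPMS KD1 (log2 fold change -0.56 ± 0.03, edgeR adjusted p = 2.6e-17) and by 1.22-fold in MBNL KD (log2 fold change -0.29 ± 0.03, edgeR adjusted p = 1.8e-11), where quantile normalization gave -0.18. Ldha was higher in MBNL KD than in RBPMS KD1 (log2 fold change 0.26 ± 0.03, edgeR adjusted p = 1.4e-10).

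Ldhb had 145, 173 and 132 scaled counts in D1 and 723, 731 and 783 in P. It had 149, 170.0 and 142 in RBPMS KD1 and 210.0, 142 and 156 in MBNL KD. The 3 PAC1-D groups overlapped, and every P library was above all of them. The rise in P was the largest among the members at 4.95-fold (log2 fold change 2.31 ± 0.10, edgeR adjusted p = 1.3e-20). The knockdowns did not pass the test, with 95% intervals of -0.26 to 0.33 in RBPMS KD1 and -0.13 to 0.49 in MBNL KD on the log2 scale, and at 130 to 211 counts a change inside those intervals was not detectable. Their signs depended on single libraries: without D1 replicate 3 or RBPMS KD1 replicate 2 the value for RBPMS KD1 was -0.05 and -0.04, and without MBNL KD replicate 1 that for MBNL KD was -0.01 against D1 and -0.06 against RBPMS KD1.

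Ratios between isozymes were taken within each library, from raw counts, so that a single scaling factor per library cancels, as does gene length when groups are compared. With 3 libraries against 3 an exact two-sided permutation test cannot go below p = 0.1, and 20 such tests were made. Of them 18 reached that value (adjusted p = 0.111), with groups that did not overlap. Single genes did not overlap for 79.1% of all genes tested in P, 63.4% in RBPMS KD1, 70.3% in MBNL KD and 71.8% between the knockdowns. Ratios of other gene pairs were not taken. The ratio of Hk2 to Hk1 counts was 0.213 ± 0.005 (SD, n = 3) in D1, 0.305 ± 0.007 in P, 0.239 ± 0.007 in RBPMS KD1 and 0.421 ± 0.019 in MBNL KD. It was therefore lowest in D1 and highest in MBNL KD, where it was 1.98-fold the D1 ratio.

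Pfkl counts stood to Pfkm counts as 2.05 ± 0.04 in D1 and 3.70 ± 0.20 in P, but as 0.90 ± 0.01 in RBPMS KD1 and 1.18 ± 0.04 in MBNL KD. This ratio moved up in P and down in both knockdowns. Pfkp to Pfkl was 0.248 ± 0.008 in D1, 0.605 ± 0.003 in P, 0.632 ± 0.010 in RBPMS KD1 and 0.825 ± 0.015 in MBNL KD. The share of Pfkp relative to Pfkl was thus higher than in D1 in each of the other groups, by 2.44-fold, 2.55-fold and 3.33-fold, with both genes rising in P and Pfkl falling while Pfkp rose in the knockdowns. Pfkp to Pfkm was 0.509 ± 0.007 in D1, 2.24 ± 0.13 in P, 0.569 ± 0.003 in RBPMS KD1 and 0.975 ± 0.019 in MBNL KD. That ratio rose 4.39-fold in P, the largest shift of the 5 ratios.

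The log2 ratio of Ldhb to Ldha was -8.76 ± 0.23 in D1, -6.99 ± 0.10 in P, -8.16 ± 0.14 in RBPMS KD1 and -8.31 ± 0.28 in MBNL KD. It was higher in P and in RBPMS KD1 than in D1 without overlap, by 1.78 and 0.60 on the log2 scale, the latter with Ldha falling and Ldhb not passing its test. On the authors' noise-corrected and quantile-normalised values the differences were smaller, 0.90 and 0.40, with the same p. MBNL KD overlapped both D1 (exact permutation p = 0.2) and RBPMS KD1 (exact permutation p = 0.5).

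**Figure D3:**
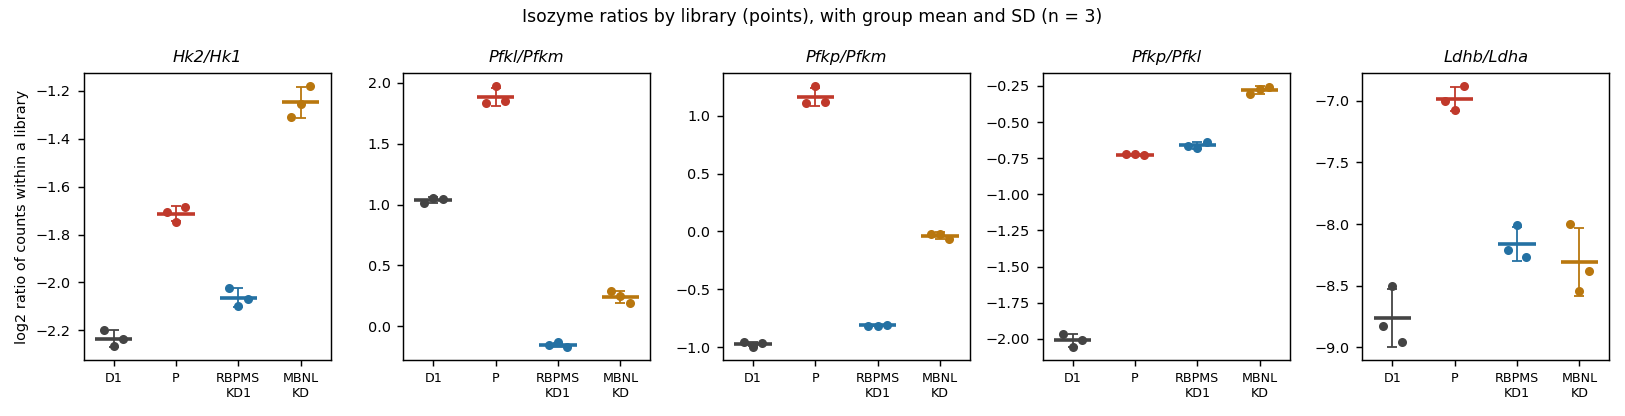
Log2 ratio of the counts of 2 isozyme genes in each library (points) by group, with the group mean (horizontal line) and SD (bars) over 3 libraries. The ratio of Pfkp to Pfkl is lowest in D1, and that of Pfkl to Pfkm is highest in P and lowest in RBPMS KD1.

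The remaining glycolytic enzymes gave the pathway around the members. Of 21 listed, 17 could be tested in P against D1, and 11 rose and 3 fell, beside 40.4% and 37.6% of all genes tested. After quantile normalization the counts were 10 and 6. Among those past the fold threshold were Eno3, an enolase isozyme typical of muscle (log2 fold change 2.11 ± 0.03, edgeR adjusted p = 1.0e-35), Pgk1, phosphoglycerate kinase (log2 fold change 1.16 ± 0.03, edgeR adjusted p = 2.7e-29), and Tpi1, triosephosphate isomerase (log2 fold change 1.08 ± 0.03, edgeR adjusted p = 1.8e-28). In RBPMS KD1, 2 of 16 tested rose and 10 fell, beside 29.5% of all genes in each direction, and in MBNL KD 3 of 17 rose and 9 fell, beside 33.8% and 33.7%. Aldoc, an aldolase gene best known from brain, fell in both knockdowns (log2 fold change -1.30 ± 0.21, edgeR adjusted p = 4.7e-06 in RBPMS KD1 and log2 fold change -1.85 ± 0.22, edgeR adjusted p = 1.5e-08 in MBNL KD) at group means of 31.9 scaled counts in MBNL KD, 46.7 in RBPMS KD1 and 115 in D1. Adpgk, an ADP-dependent glucokinase singled out after its values were seen, rose in both knockdowns, with 6334 ± 244 scaled counts in MBNL KD, 6918 ± 15.6 in RBPMS KD1 and 3672 ± 84.1 in D1. Its rise was 1.89-fold in RBPMS KD1 (log2 fold change 0.92 ± 0.03, edgeR adjusted p = 8.4e-20) and 1.73-fold in MBNL KD (log2 fold change 0.79 ± 0.03, edgeR adjusted p = 7.3e-19).

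Gapdh, a glycolytic enzyme that the study also used as a qPCR reference gene, had 7593, 7727 and 8070.2 scaled counts in D1 and 13511, 13138 and 12838 in P. It had 5767, 5851 and 6119 in RBPMS KD1 and 7298, 7301 and 7061 in MBNL KD. The 4 groups did not overlap. It rose in P (log2 fold change 0.75 ± 0.03, edgeR adjusted p = 4.9e-22) and fell in RBPMS KD1 (log2 fold change -0.40 ± 0.03, edgeR adjusted p = 9.3e-12) and, slightly, in MBNL KD (log2 fold change -0.11 ± 0.03, edgeR adjusted p = 9.8e-04), directions that held under the other scalings tried. Gapdh, Ldha and Pkm have near-identical processed copies in rodent genomes, and how reads matching several places were counted is not given in the sources used here, so their levels are uncertain to that extent.

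**Figure D4:**
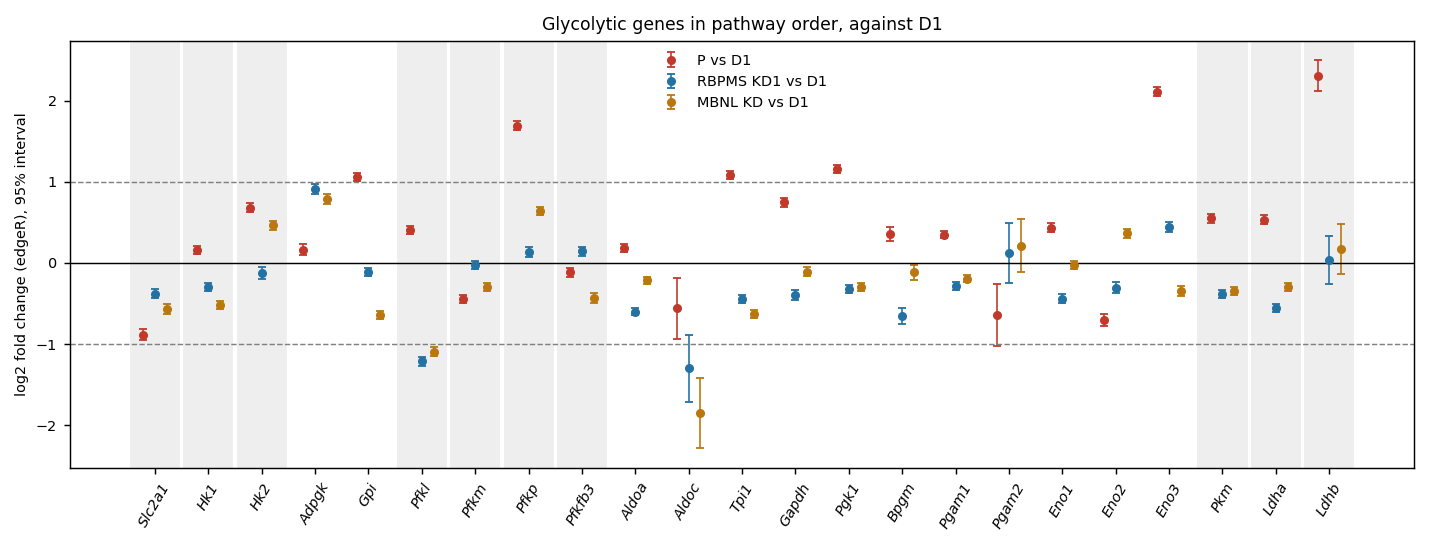
Log2 fold change against D1 (vertical axis, points with bars of the 95% interval) of the glycolysis genes in pathway order, with the 10 members on grey and other enzymes on white. Pgk1, Tpi1 and Eno3 are higher in P by over 1 on the log2 scale, as Pfkp and Ldhb are, and Adpgk is higher than D1 in both knockdowns.

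For Hk2, Pkm and Pfkfb3, the genes whose levels followed them most closely over the 12 libraries were looked up among 12637 genes with a mean of at least 100 scaled counts, by Pearson's r of log2 scaled counts. This is a description over 12 libraries in 4 groups, and libraries of one group are near-repeats of each other. Hk2 was followed most closely by Pmaip1 (r = 0.995), Arhgef2 (r = 0.991) and Ddx43 (r = 0.991). Pmaip1 averaged 1312 scaled counts in P, 920 in MBNL KD, 471 in D1 and 377 in RBPMS KD1, the same order as Hk2. Ddx43 averaged 1076 in P and 191.6 in MBNL KD but 13.6 in D1 and 7.7 in RBPMS KD1, so it reached the minimum mean only through the groups where it was high. Pkm was followed by LOC100364062 (r = 0.995), Nup205 (r = 0.995) and LOC100362738 (r = 0.995), 2 of them symbols that the RefSeq gene table used here does not name. Pfkfb3 was followed by Ctsb (r = 0.994), Paqr4 (r = 0.993) and Rab3d (r = 0.992). Ctsb, the lysosomal protease cathepsin B, averaged 106749 scaled counts in RBPMS KD1, 80263 in D1, 59152 in P and 30168 in MBNL KD.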

How the data were processed

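Poly(A) RNA of 12 libraries was sequenced. The submitters' processing notes name FastQC 0.11.9, MultiQC 1.14, STAR 2.7.11b, edgeR 3.40.2, DESeq2 1.38.3 and the rat build mRatBN7.2. The authors subsampled reads to 55 M per sample, aligned them and deposited raw counts per gene symbol. A second deposited table holds signal values, made by the authors through noise correction and quantile normalization, and served for 1 alternative. Strand setting and mate counting are not given in the sources used here. The totals of 80842635 to 90771289 counts per library exceed 55 M, so a read pair could give more than 1 count. Among low counts, even ones were 2.09 to 2.37 times as frequent as odd ones, and halving all counts was an alternative.

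Each comparison used its 6 libraries in R 4.3.3 with edgeR 4.0.16 (filterByExpr, TMM, quasi-likelihood F test, Benjamini-Hochberg over all genes tested), calling genes whose adjusted p was under 0.05 and whose log2 fold change lay beyond 1 in either direction. DESeq2 1.42.0 and limma 3.58.1 served for alternatives, and Python 3.11.15 with scipy 1.17.1 for isozyme ratios (0.5 added to each count). The fits were tested on simulated data. Scaled counts are relative to the geometric mean library, and errors are SDs over libraries or SEs of fitted values. The study's methods state that replicates were independent biological ones, which the labels do not spell out per library, and p-values measure the spread between these libraries. Counting errors alone set the limit of 3 counts.

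The members and gene lists were chosen with earlier results of these data known. Named genes are the members, Gapdh and, per other list and comparison, at most 3 called genes with the largest changes, if the higher group reached 100 scaled counts, with the 3 genes most like Hk2, Pkm and Pfkfb3. Not every gene that met this rule is given. Among those left out in P are Rpia and Gbe1, which rose, and Gyg1 and Pc, which fell. Outside that rule, and with their values seen, Adpgk, Slc2a3, Pdk2, Pdk4, the names in the serine list, the marker genes, the targeted genes, genes overlapping members, the examples of Pkm exon regulators and further comparisons of genes named by the rule (such as Slc16a3 in RBPMS KD1) were given.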

Additional observations from a re-analysis of the deposited data

How the results depend on the processing

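The depth limits Ldhb outside P. With no fold threshold the members called were 10 in P, 8 in RBPMS KD1, 9 in MBNL KD and 8 between the knockdowns, and all genes called were 13103, 9393, 10833 and 11202. Limma on the normalised values called 0 members in MBNL KD (DESeq2 called 1, edgeR had 9 at an unadjusted p under 0.05), and of all genes 209 in RBPMS KD1, 784 in MBNL KD and 1050 between the knockdowns. At least 10 counts in every library left 2933 calls in P. Among the members, signs turned only where edgeR made no call: Pfkm in RBPMS KD1 (0.043 by quantile normalization, 0.045 by limma) and Ldhb in RBPMS KD1 (-0.080 and -0.063), in MBNL KD (-0.014 and -0.022) and when a library was left out (-0.047 to 0.149 in RBPMS KD1, -0.011 to 0.287 in MBNL KD, -0.063 to 0.234 between the knockdowns). The cause was not tested. Of the alternatives for single members, 587 kept direction and side of the adjusted p threshold (among them Pfkl in MBNL KD, which lost its call on the fold threshold by limma, at -0.99), 10 reversed, 2 became stronger (Pkm between the knockdowns) and 1 weaker (Hk2 in RBPMS KD1). The 180 alternatives for ratios kept their direction, which alone was compared, since the p-value of a ratio cannot go under 0.1. Sizes moved by over 1.5 times on the authors' normalised values for Ldhb to Ldha in all comparisons with D1 (0.90 in P, 0.40 in RBPMS KD1, 0.19 in MBNL KD) and for Pfkp to Pfkm in RBPMS KD1 (0.11, against 0.16). Replicate numbers did not pair the libraries (correlations of deviations -0.025 to 0.025), and with the replicate block 4593, 730, 1634 and 1915 genes were called and no member's call changed.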

Other observations

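In P, 4 of 5 lactate transport genes tested rose and 1 fell, beside 40.4% and 37.6% of all genes tested. In RBPMS KD1 3 of 5 rose and 2, Emb and Slc16a3, fell, beside 29.5% each, and in MBNL KD 2 of 6 rose and 2 fell, beside 33.8% and 33.7%. After quantile normalization, and by limma on the normalised values, 1 rose and 2 fell in MBNL KD. Emb, the embigin chaperone of lactate transporters, averaged 28194 ± 117 scaled counts in P against 229.9 ± 23.6 in D1 (log2 fold change 6.93 ± 0.04, edgeR adjusted p = 3.6e-44), and in RBPMS KD1 it fell to 67.1 ± 20.6 (log2 fold change -1.77 ± 0.18, edgeR adjusted p = 1.2e-09), whereas in MBNL KD it rose to 292 ± 33.8 (log2 fold change 0.35 ± 0.12, edgeR adjusted p = 0.01). Slc16a3, the lactate exporter MCT4, rose from 64.1 ± 8.4 to 629 ± 55.8 (log2 fold change 3.29 ± 0.12, edgeR adjusted p = 3.7e-22) and fell in RBPMS KD1 (log2 fold change -1.06 ± 0.27, edgeR adjusted p = 0.0014), and Slc16a1, MCT1, rose 2.88-fold in P (log2 fold change 1.52 ± 0.03, edgeR adjusted p = 8.9e-30) and slightly in RBPMS KD1 (log2 fold change 0.10 ± 0.04, edgeR adjusted p = 0.021). Of 13 genes for the entry of pyruvate into mitochondria tested, 6 rose and 5 fell in P, beside the same shares. Among the kinases in that list, which switch off pyruvate dehydrogenase, Pdk1 and Pdk3 rose (log2 fold change 2.04 ± 0.04, edgeR adjusted p = 3.5e-30 and log2 fold change 1.67 ± 0.03, edgeR adjusted p = 7.2e-30), Pdk2 rose by 1.06-fold (log2 fold change 0.08 ± 0.04, edgeR adjusted p = 0.041) and Pdk4 did not pass the test (log2 fold change -0.32 ± 0.17, edgeR adjusted p = 0.087). Of the 10 other glucose transporter genes 4 rose and 5 fell in P, again beside 40.4% and 37.6% of all genes. Slc2a5 rose from 3.7 ± 2.6 to 141 ± 13.7 scaled counts (log2 fold change 5.18 ± 0.35, edgeR adjusted p = 3.3e-15). Slc2a6 (log2 fold change 2.14 ± 0.04, edgeR adjusted p = 1.4e-30) and Slc2a3 (log2 fold change 2.06 ± 0.05, edgeR adjusted p = 1.1e-28) rose too, while Slc2a10 fell (log2 fold change -2.31 ± 0.07, edgeR adjusted p = 2.1e-25). Slc2a9, a urate and hexose carrier, fell in P (log2 fold change -1.23 ± 0.24, edgeR adjusted p = 3.4e-05). It rose in RBPMS KD1 (log2 fold change 2.10 ± 0.13, edgeR adjusted p = 2.6e-14) and MBNL KD (log2 fold change 1.98 ± 0.13, edgeR adjusted p = 4.8e-14).

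The genes of serine synthesis, a branch that leaves glycolysis (Phgdh, Psat1 and Psph), differed between MBNL KD and RBPMS KD1. So did Shmt1 and Shmt2, serine hydroxymethyltransferase genes that were put in the same list. All 5 genes of this list were higher in MBNL KD than in D1, beside 33.8% of all genes tested that were higher, whereas 4 of 5 were lower in RBPMS KD1, beside 29.5% that were lower there. Compared directly, all 5 were higher in MBNL KD than in RBPMS KD1, beside 35.1% of all genes. Of 7 pentose phosphate genes 3 were higher and 4 lower in that comparison, and of 9 glycogen genes 2 were higher and 6 lower, beside 35.1% and 34.5%. Phgdh, which draws on 3-phosphoglycerate, was higher in MBNL KD than in RBPMS KD1 (log2 fold change 1.03 ± 0.03, edgeR adjusted p = 1.3e-23). Pck2, the mitochondrial phosphoenolpyruvate carboxykinase, stood at 16737 ± 510.5 scaled counts in MBNL KD and 5616 ± 102 in D1 (log2 fold change 1.58 ± 0.03, edgeR adjusted p = 1.0e-28). It rose in RBPMS KD1 too (log2 fold change 0.41 ± 0.03, edgeR adjusted p = 1.1e-12) and was higher in MBNL KD than there (log2 fold change 1.17 ± 0.03, edgeR adjusted p = 4.3e-26). Of 11 regulators of glycolysis genes or glucose uptake tested in MBNL KD, 2 rose and 8 fell, beside 33.8% and 33.7% of all genes. In P 7 rose and 6 fell of 13, beside 40.4% and 37.6%, and in RBPMS KD1 2 rose and 5 fell of 11, beside 29.5% each. Egln3 rose in P from 0.7 ± 1.2 to 5926 ± 208 scaled counts (edgeR adjusted p = 1.5e-38). Epas1 (log2 fold change -2.815 ± 0.059, edgeR adjusted p = 1.6e-29) and Myc (log2 fold change -2.60 ± 0.04, edgeR adjusted p = 1.3e-32) fell there. Among the listed regulators Txnip and Arrdc4, which restrain glucose uptake, fell in MBNL KD (log2 fold change -1.95 ± 0.02, edgeR adjusted p = 1.9e-31 and log2 fold change -3.09 ± 0.10, edgeR adjusted p = 2.3e-21), as did Mlxip, a factor that drives both (log2 fold change -1.68 ± 0.04, edgeR adjusted p = 2.9e-24). In P Mlxip rose (log2 fold change 0.70 ± 0.03, edgeR adjusted p = 3.0e-20) while Arrdc4 (log2 fold change -1.33 ± 0.08, edgeR adjusted p = 4.8e-17) and Txnip (log2 fold change -0.21 ± 0.03, edgeR adjusted p = 2.5e-08) fell, and in RBPMS KD1 Mlxip (log2 fold change -0.44 ± 0.04, edgeR adjusted p = 1.3e-11) and Txnip (log2 fold change -0.11 ± 0.03, edgeR adjusted p = 0.0011) fell while Arrdc4 did not pass the test (log2 fold change -0.06 ± 0.07, edgeR adjusted p = 0.44).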
